A study of Drosophila melanogaster with 110 samples.

Results

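The NK homeobox gene cluster of Drosophila melanogaster is a row of 6 homeobox genes on chromosome arm 3R. Its members, taken by gene name, were tinman (tin, FBgn0004110, 21378977-21381970, plus strand), bagpipe (bap, FBgn0004862, 21388880-21390449, plus), ladybird late (lbl, FBgn0008651, 21409979-21434133, minus), ladybird early (lbe, FBgn0011278, 21441577-21446537, minus), C15 (FBgn0004863, 21499986-21512814, plus) and slouch (slou, FBgn0002941, 21548661-21557182, minus), 6 of 24254 annotated genes. Every deposited peak was kept that overlapped 1 of these genes or the 10 kb on either side of it in the dm6 assembly, with gene models of the Ensembl copy of the FlyBase annotation. The 6 windows joined into 3 stretches of 87.6, 32.8 and 28.5 kb, or 148.9 kb in all. They held 667 of the 272688 peaks in 76 lists. The peaks of all libraries of 1 antibody were then merged wherever they overlapped by at least 1 bp. In what follows a site is such a merged region, and 173 sites of 11 targets lay in the windows.

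The lists came from ChIP-seq in Kc167, an established embryonic cell line labelled as hemocyte. The rump RNAi cells had received dsRNA against rumpelstiltskin (rump), which encodes an hnRNP M homolog, and the control cells had received dsRNA against GFP, both 4 days before harvest. Each of 12 targets had 3 biological replicates per condition and H3K27me3 had 2. Only peak lists were used, so reads per library are unknown here and the level of rump itself was not measured. All libraries come from 1 cell line, and the reading of each list depends on its length. The Psc lists held 322 to 398 peaks in rump RNAi cells and 723 to 881 in control cells, and the Pc lists 352 to 974 in rump RNAi cells and 639 to 769 in control cells. The CP190 lists held 8080 to 8209 in rump RNAi cells and 8069 to 8168 in control cells. H3K27me3 covered no part of the body of the 11 hemocyte genes examined in any library. Of 3 matched genes of other cell types, the body of repo, a glial gene, was covered over 69.2% in rump RNAi cells and 60.7% in control cells, that of elav, a neuronal gene, over 15.4% in rump RNAi cells and 16.2% in control cells, and that of Myo31DF not at all (means, n = 2 each).

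Homeobox genes encode transcription factors that assign identities to cells. Among the NK genes, tin is required for the heart and dorsal mesoderm, bap for the visceral mesoderm, lbe and lbl for subsets of heart and muscle cells, slou for single muscle identities, and C15 for the tip of the leg. Genes of this kind are kept silent outside their own cells by Polycomb group (PcG) proteins. The DNA-binding protein Pho and its partners sit at recruiting elements, Polycomb repressive complex 2 with E(z) and Su(z)12 methylates histone H3 at lysine 27, and complex 1 with Ph, Psc and Pc joins it. Combgap (Cg) and Crooked legs (Crol) are zinc finger proteins known at such elements. CP190, CTCF, Su(Hw) and Mod(mdg4) are insulator proteins, which can lie at the borders of repressed domains.

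A PcG site was defined as a Ph site that overlapped sites of Psc and Pho, where all 3 had peaks in 3 or more of their 6 libraries. Of 421 such sites in the genome, 8 lay in the NK cluster, and 5 of these had peaks in every library of all 3 proteins. For these 5, the central 200 bases are shown because these are the places where the PcG proteins of the cluster were found in every library. They are reference sequence of the plus strand (RefSeq, dm6), taken as close to the Ph summit as possible without annotated UTR. All 5 windows are intergenic. Capitals mark GCCAT or its reverse complement ATGGC, the core letters bound by Pho, and GAGAG or CTCTC, the letters of GAGA factor.
tin start, chr3R:21378777-21378976: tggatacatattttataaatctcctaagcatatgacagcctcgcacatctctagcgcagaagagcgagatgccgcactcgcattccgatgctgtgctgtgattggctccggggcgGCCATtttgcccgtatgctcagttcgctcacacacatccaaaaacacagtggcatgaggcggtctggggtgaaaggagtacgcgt
lbl start, chr3R:21434239-21434438: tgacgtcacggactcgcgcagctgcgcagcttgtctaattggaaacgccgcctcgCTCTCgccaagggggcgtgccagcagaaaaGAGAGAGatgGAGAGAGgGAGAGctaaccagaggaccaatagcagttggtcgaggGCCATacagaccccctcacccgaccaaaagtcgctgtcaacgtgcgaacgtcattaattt
lbe start, chr3R:21446538-21446737: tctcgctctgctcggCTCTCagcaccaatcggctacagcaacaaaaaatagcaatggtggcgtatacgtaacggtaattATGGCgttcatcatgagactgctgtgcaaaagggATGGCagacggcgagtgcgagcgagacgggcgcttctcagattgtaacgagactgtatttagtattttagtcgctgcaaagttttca
C15 start, chr3R:21499532-21499731: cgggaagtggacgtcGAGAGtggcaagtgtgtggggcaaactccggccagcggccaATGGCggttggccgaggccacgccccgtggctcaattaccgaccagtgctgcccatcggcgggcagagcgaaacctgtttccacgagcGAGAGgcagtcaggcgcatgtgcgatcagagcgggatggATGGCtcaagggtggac
slou upstream, chr3R:21561647-21561846: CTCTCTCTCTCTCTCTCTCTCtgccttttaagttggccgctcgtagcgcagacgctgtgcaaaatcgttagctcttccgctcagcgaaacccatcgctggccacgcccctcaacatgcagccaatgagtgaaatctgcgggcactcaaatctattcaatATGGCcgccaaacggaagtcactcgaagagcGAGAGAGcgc

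Each of the 5 windows held 1 or 2 copies of the Pho letters, counted on both strands. Such letters were present in 56.6% of the same-length windows at the 408 PcG sites on the main chromosome arms and in 35.3% of all 668175 tiled windows of these arms. The GAGA letters, with overlapping copies counted, occurred 6 times at lbl, 1 time at lbe, 2 times at C15 and 11 times upstream of slou, and were not in the tin window. They were present in 65% of PcG site windows and 21.4% of all windows. GTGT or ACAC, letters linked to Cg, occurred 3 times at tin and 2 times at C15 and in none of the other windows. They were present in 74.8% of PcG site windows and 69.9% of all windows. These matches describe the letters in each window and say nothing of occupancy.

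**Figure D1:**
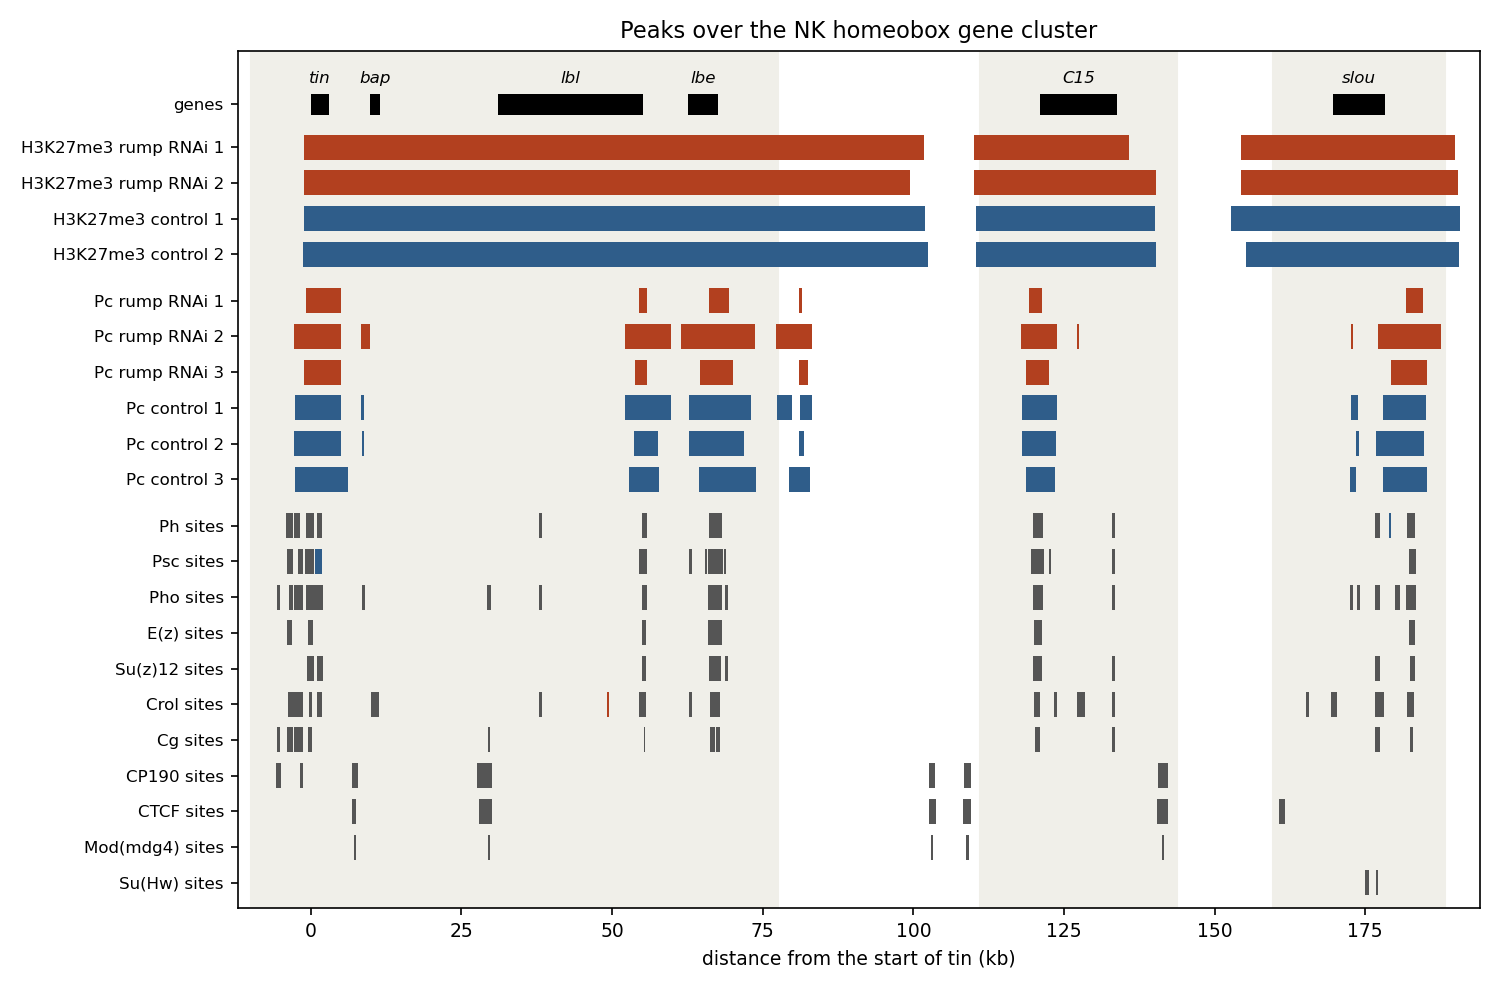
Map of the NK cluster by distance from the start of tin (kb). Rows show, from the top, the genes, the H3K27me3 and Pc broad peaks of each library (rump RNAi red, control blue) and the sites of each narrow-peak target with peaks in at least 2 of 3 libraries of a condition (grey, with gained sites red and lost sites blue), and the grey bands are the windows. Insulator sites within 5 kb of a domain edge are drawn outside the bands as well. The 4 H3K27me3 libraries show the same 3 domains, and the sites of PcG proteins stack at the starts of tin, lbl, lbe and C15 and upstream of slou.

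To determine whether the silent state of the cluster was altered after Rump depletion, H3K27me3 was examined first. All 4 libraries showed the same 3 domains, and the body of every NK gene was covered over 100% in every library. The first domain held tin, bap, lbl and lbe and measured 102.9 and 100.6 kb in rump RNAi cells and 103.0 and 103.6 kb in control cells. The second held C15 and measured 25.7 and 30.1 kb in rump RNAi cells, against 29.7 and 29.9 kb in control cells. The third held slou, with 35.5 and 35.9 kb in rump RNAi cells and 38.0 and 35.4 kb in control cells. Over the 3 stretches, H3K27me3 covered 90.1% ± 2.08 of bases in rump RNAi cells and 91.6% ± 0.176 in control cells (SD, n = 2 each, exact two-sided permutation p = 0.667). With 2 against 2 libraries the smallest p this test allows is 0.333. The windows of bap, lbl, lbe and slou were covered completely in all libraries and could only fall.

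The tin window was covered over 61.5% in both rump RNAi libraries, and over 61.4% and 61.9% in the control libraries, as the domain began next to the start of mod(mdg4). The C15 window was the one place where a library stood apart. It was covered over 75.6% and 88.9% in rump RNAi cells and 88.5% and 89.3% in control cells, and the low value belonged to rump RNAi replicate 1, whose domain ended at 21514799. Without this library, the mean difference in cover of the C15 window (rump RNAi minus control) was 0.04 percentage points, against -6.64 with it. Cover of the 3 stretches together depended on the significance asked of a domain. With only domains of a mean -log10 q of at least 20, cover of the 3 stretches was 52.9% and 0% in rump RNAi cells. In control cells it was 72.0% and 72.1%. The first domain scored 20.6 and 19.8 in rump RNAi cells and 24.2 and 26.6 in control cells. The slou domain scored 18.1 and 17.8 in rump RNAi cells and 21.5 and 24.0 in control cells. The C15 domain scored under 20 in all 4 libraries, with 16.5 and 16.7 in rump RNAi cells and 17.5 and 17.7 in control cells. All 3 domains thus scored lower in rump RNAi cells without overlap. Scores of the other domains of the genome were not compared, so whether the lower scores are particular to this cluster was not tested. The fold enrichment of the same domains ran the other way without overlap, with 4.38 and 4.69 in rump RNAi cells and 4.14 and 3.90 in control cells for the first domain. It was 3.97 and 4.39 in rump RNAi cells and 3.61 and 3.29 in control cells for the C15 domain. For the slou domain it was 3.92 and 4.17 in rump RNAi cells and 3.74 and 3.56 in control cells. Over whole lists the median fold enrichment was 3.68 and 4.05 in rump RNAi cells and 3.34 and 2.91 in control cells. The shift was thus not particular to these domains. By rank within each list, the first and C15 domains overlapped between conditions and the slou domain was lower in rump RNAi cells. None of the 6 NK windows had lower or higher H3K27me3 cover in rump RNAi cells without overlap between the conditions. Among 3579 gene windows with any cover, 26.9% were lower and 3.1% higher without overlap. Of 11 other NK-like homeobox genes, 6 had lower windows. Of 18 regulators of mesoderm and muscle, 2 were lower and 12 had at least 50% of the gene body covered in all libraries.

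The edges of the domains and the insulator proteins at them were then compared. The left edge of the first domain lay at 21377825 and 21377837 in rump RNAi cells and at 21377855 and 21377740 in control cells. A CP190 site (21377239-21377755) over the start of mod(mdg4) reached this edge in control replicate 2 and ended just short of it in the other 3 libraries. This is the gene that encodes the insulator protein Mod(mdg4). CP190 was weak at this site, with fold enrichment over input of 3.11, 3.15 and 3.91 in rump RNAi cells and 2.60, 3.91 and 2.82 in control cells. A stronger CP190 site (21373210-21373964) lay at least 3776 bp outside the edge, with 5.80, 7.70 and 8.15-fold enrichment in rump RNAi cells and 6.56, 9.42 and 6.18-fold in control cells. The right edge varied over 2970 bp, from 21478392 in rump RNAi replicate 2 to 21481362 in control replicate 2. It lay further left in rump RNAi cells (21480712 and 21478392) than in control cells (21480830 and 21481362), a mean shift of -1544 bp. It faced a CTCF site (21481570-21482728) and a CP190 site (21481654-21482609), both with peaks in all 6 libraries. CTCF had 4.20, 5.41 and 4.89-fold enrichment there in rump RNAi cells and 3.26, 7.88 and 5.17-fold in control cells, so the conditions overlapped. Mod(mdg4) had a site there (21481880-21482242) with a peak of 11.0-fold in 1 rump RNAi library and of 5.77 and 8.24-fold in 2 control libraries.

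On the other side of the short unmethylated gap, which holds Fancm, the C15 domain began at 21489102 and 21489125 in rump RNAi cells and at 21489369 and 21489382 in control cells. The conditions did not overlap, and the mean shift was -262 bp, which lengthened this domain in rump RNAi cells. CTCF, CP190 and Mod(mdg4) sites lay 570, 630 and 933 bp outside the nearest of these edges, again with peaks in all libraries. The right edge of the C15 domain lay at 21514799 and 21519185 in rump RNAi cells and 21519044 and 21519300 in control cells. It faced CTCF, CP190 and Mod(mdg4) sites 54, 304 and 919 bp from the nearest of these edges, that of control replicate 2, next to the start of sp3. CP190 reached 5.04, 7.68 and 8.47-fold at this site in rump RNAi cells and 6.61, 10.0 and 7.17-fold in control cells. The slou domain began at 21533388 and 21533420 in rump RNAi cells and at 21531679 and 21534113 in control cells. It ended at 21568893 and 21569305 in rump RNAi cells and at 21569682 and 21569542 in control cells, a mean shift of -513 bp. Of the 6 edges, 3 thus did not overlap between conditions, each with the smallest exact two-sided permutation p possible (0.333). The domain was shorter in rump RNAi cells at 2 of them and longer at 1. The share of such edges over all domains of the genome was not determined, so this count is a description only. The slou domain differed from the other 2 in that no site of the 4 insulator proteins called in 2 of 3 libraries lay within 5 kb of either edge. Somewhat further inside its left edge lay a CTCF site (21539694-21540681) with peaks in 3 rump RNAi and 2 control libraries, so the contrast depends on this distance.

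A further 3 CP190 sites lay inside the first domain, which continued across them in every library. CP190 upstream of bap (21385835-21386748) had 9.51, 10.1 and 9.57-fold enrichment in rump RNAi cells and 8.82, 12.5 and 8.57-fold in control cells. The other 2 CP190 sites lay side by side beyond the 3′ end of lbl (21406613-21407838 and 21407839-21409075), over the start of CheB93a and just upstream of CheB93b, 2 small genes of a chemosensory protein family. At the second of them the summits of CP190 (21408533), CTCF (21408540), Pho (21408561) and Mod(mdg4) (21408566) lay side by side. This window is shown because it was the strongest Mod(mdg4) site within the windows in all 6 libraries, and capitals mark a core match to the CTCF motif, which was searched for after the sequence had been read.
near CheB93b, chr3R:21408466-21408665: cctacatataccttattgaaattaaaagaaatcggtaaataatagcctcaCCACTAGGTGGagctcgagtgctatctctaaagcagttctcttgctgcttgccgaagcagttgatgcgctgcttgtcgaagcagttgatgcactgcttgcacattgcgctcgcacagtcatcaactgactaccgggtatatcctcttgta

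This core motif, searched on both strands, was present in 20.4% of the windows at the 1142 CTCF sites found in all 6 libraries and in 1.38% of all windows of the chromosome arms. The letters of Pho, GAGA factor and Cg searched above were absent here. Pho had 15.0, 7.55 and 15.2-fold enrichment at this site in rump RNAi cells and 13.9, 10.5 and 14.0-fold in control cells. Mod(mdg4) had 5.74, 8.73 and 18.3-fold in rump RNAi cells and 11.0, 12.5 and 18.4-fold in control cells. No Ph or Psc site was called there, so it was not a PcG site by the definition used. Su(Hw), the DNA-binding member of the gypsy insulator complex, had 1 site in the cluster with peaks in all libraries, in slou (21553874-21554576), with 7.20, 7.28 and 10.4-fold in rump RNAi cells and 8.43, 7.42 and 10.7-fold in control cells. All 6 libraries of CP190 had exactly 6 peaks in the NK windows.

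Pc, the reader of the methylated histone, covered the cluster in separate broad peaks rather than in a continuous domain. Over the 3 stretches it covered 10.4%, 31.3% and 15.7% of bases in rump RNAi cells and 27.2%, 23.7% and 24.4% in control cells. Replicates 1 and 3 of rump RNAi lay below all control libraries and replicate 2 above all of them, and the mean difference of -5.97 percentage points had an exact two-sided permutation p of 0.4, where 0.1 is the smallest that 3 against 3 libraries allow. Without rump RNAi replicate 2 the difference was -12.1 points. The Pc lists of the low libraries were also short, with 352 peaks in replicate 1 and 425 in replicate 3 of rump RNAi, against 974 in replicate 2, and the part of list length in the cover was not tested.

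Every NK gene except bap carried Pc over its body in at least 1 library of each condition. The tin body was covered over 100% in all 6 libraries. The lbe body was covered over 28.7%, 100% and 59.1% in rump RNAi cells and over 97.2%, 97.9% and 63.0% in control cells. For C15 the body cover was 3.31%, 25.1% and 11.3% in rump RNAi cells and 21.9%, 21.3% and 19.99% in control cells. In slou it was listed at 0 in rump RNAi replicates 1 and 3 and was 17.5% in replicate 2, against 14.9%, 21.8% and 14.0% in control cells. The lbl body was covered over 2.87%, 12.4% and 5.83% in rump RNAi cells and over 12.7%, 6.08% and 9.77% in control cells. In lbe, lbl, C15 and slou, rump RNAi replicates 1 and 3 thus lay below all control libraries, the split seen over the whole cluster. The bap body had no Pc in any library.

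Including the 10 kb flanks, the lbe window had the most Pc, with 42.7% ± 32.5 in rump RNAi cells and 60.6% ± 9.46 in control cells (SD, n = 3 each, exact permutation p = 0.4). The tin window had 30.4% ± 7.89 in rump RNAi cells and 36.3% ± 1.78 in control cells, and the slou window 23.1% ± 14.1 in rump RNAi cells and 29.0% ± 0.357 in control cells. The C15 window had 12.5% ± 6.24 in rump RNAi cells and 16.7% ± 1.69 in control cells. None of the 6 windows was without overlap between conditions, while 1.61% of 3547 gene windows with Pc were lower and 0% higher without overlap. The engrailed-invected and Iroquois loci, 2 other groups of developmental regulators, had Pc cover of 27.3% ± 8.47 and 23.3% ± 12.4 in rump RNAi cells and 30.2% ± 4.08 and 29.6% ± 3.96 in control cells, with the lowest value in rump RNAi replicate 1 at both loci.

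**Figure D2:**
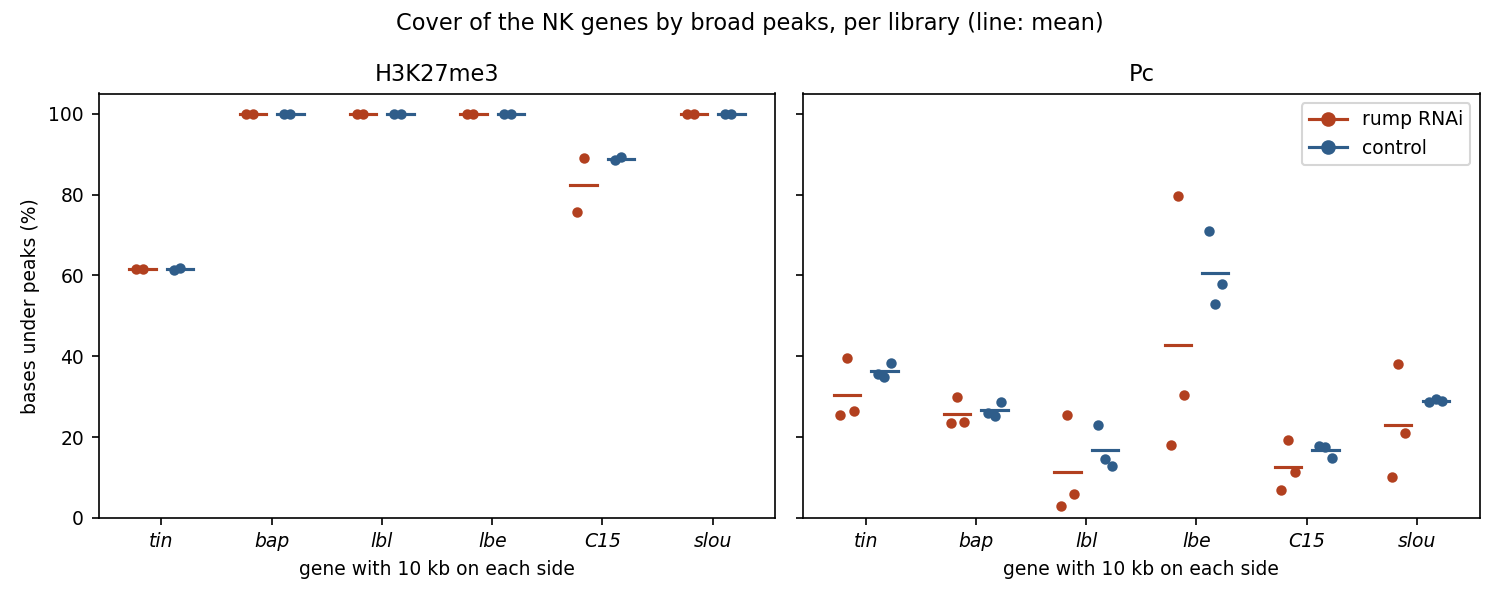
Share of bases under H3K27me3 (left) and Pc (right) broad peaks, in percent, for each NK gene with 10 kb on each side. Points are libraries and lines are means, with rump RNAi to the left of control for each gene. H3K27me3 is complete in all libraries except at tin and C15, where 1 rump RNAi library is low at 75.6%, and Pc spreads most in the rump RNAi libraries, from 18.1% to 79.5% at lbe.

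The PcG sites were then followed gene by gene. At the start of tin (21378228-21379519, Ph summit at -89 bp from the annotated start) all PcG proteins and recruiters had peaks in all 6 libraries. Ph, a core subunit of complex 1, had 34.5, 21.7 and 39.3-fold enrichment in rump RNAi cells and 32.8, 32.2 and 38.1-fold in control cells. Psc, its partner, had 24.7, 37.5 and 20.1-fold in rump RNAi cells and 23.5, 35.2 and 44.8-fold in control cells. Both sets overlapped. Pho had 27.5, 21.0 and 28.0-fold in rump RNAi cells and 24.3, 22.4 and 21.0-fold in control cells. E(z), the methyltransferase, had 14.1, 12.9 and 14.9-fold in rump RNAi cells and 12.1, 11.9 and 8.97-fold in control cells. The E(z) values did not overlap, but after centring the difference was 0.14 ± 0.23 (log2, SE, limma adjusted p = 0.982). This start was the strongest Cg site among the NK PcG sites, with 13.2, 15.1 and 15.6-fold in rump RNAi cells and 11.5, 15.4 and 13.8-fold in control cells, and a weak Crol site, with 4.20, 4.16 and 4.18-fold in rump RNAi cells and 4.12, 5.43 and 6.37-fold in control cells. Another PcG site lay in a tin exon (21380060-21380894), where Ph did not exceed 4.30-fold in any library.

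The bap gene had no PcG site of its own, and its window held only those of tin. Pho had a low site upstream of it (21387490-21387924), at 3.61, 2.94 and 4.11-fold in rump RNAi cells and 4.43, 4.87 and 3.65-fold in control cells. Crol had a low site in a bap exon with peaks in 5 of 6 libraries. H3K27me3 covered bap completely.

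The lbl start (21433897-21434799, summit at -206 bp) was weaker and more variable. Ph had 19.0, 6.88 and 24.6-fold enrichment in rump RNAi cells and 29.7, 21.5 and 24.4-fold in control cells. Psc had 9.21, 8.52 and 5.16-fold in rump RNAi cells and 13.9, 8.75 and 14.1-fold in control cells. Pho had 12.5, 4.43 and 17.0-fold in rump RNAi cells and 16.5, 12.7 and 14.2-fold in control cells. The low Ph and Pho values both came from rump RNAi replicate 2, and the values of the other 2 replicates overlapped the controls. Control Ph and Pho libraries of the same number are labelled with a shared input, so the 2 targets need not be independent within a replicate. The rump RNAi inputs were left unassigned. E(z) had peaks in 3 and Cg in 2 of 6 libraries.

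The lbe start (21445135-21447263, summit at -14 bp) was among the strongest. Ph had 44.1, 28.9 and 42.6-fold enrichment in rump RNAi cells and 38.5, 34.8 and 35.4-fold in control cells, placing it above 96% of the Ph peaks of each list. Psc had 32.8, 38.2 and 25.9-fold in rump RNAi cells and 31.1, 34.2 and 36.2-fold in control cells. E(z) had 22.3, 13.1 and 19.1-fold in rump RNAi cells and 17.7, 19.3 and 9.52-fold in control cells. Su(z)12, its partner in complex 2, had 15.7, 11.6 and 15.2-fold in rump RNAi cells and 9.50, 12.5 and 9.46-fold in control cells. Crol had 7.20, 8.01 and 6.41-fold in rump RNAi cells and 3.68, 6.86 and 6.34-fold in control cells, the low value being that of control replicate 1, which had the shortest Crol list. All of these sets overlapped between conditions.

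The C15 start (21498792-21500485) also spanned the start of lncRNA:CR44032, and its Ph summit lay at -354 bp from C15 and -227 bp from the lncRNA. Ph had 41.1, 26.3 and 38.4-fold enrichment in rump RNAi cells and 37.6, 37.7 and 29.6-fold in control cells. Psc had 28.8, 26.0 and 20.8-fold in rump RNAi cells and 39.4, 33.6 and 46.0-fold in control cells. These Psc values did not overlap, yet the uncentred Psc difference had a median of -0.42 on the log2 scale over the 218 sites of the genome found in all 6 Psc libraries, and after centring the C15 difference was -0.16 ± 0.22 (log2, SE, limma with Benjamini-Hochberg adjustment, adjusted p = 0.878). Crol was strongest in the cluster here, with 9.18, 8.40 and 7.91-fold in rump RNAi cells and 5.43, 10.3 and 11.4-fold in control cells. A weaker PcG site lay in the last part of C15 (21511956-21512419), where Crol had 7.30, 7.82 and 6.45-fold in rump RNAi cells and 3.69, 7.82 and 8.19-fold in control cells. Psc had a peak there in 1 rump RNAi library and 3 control libraries.

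The slou site lay outside the gene, at -4565 bp from its start (21560924-21562260). Ph had 18.2, 7.41 and 19.99-fold enrichment in rump RNAi cells and 22.7, 19.8 and 24.6-fold in control cells, with rump RNAi replicate 2 again the lowest. Pho had 21.6, 11.3 and 21.6-fold in rump RNAi cells and 19.4, 14.7 and 17.0-fold in control cells. Crol, in contrast to the sites at gene starts, had a peak in only 1 rump RNAi library and 2 control libraries and did not exceed 2.28-fold. The start of slou itself had no PcG site, although Ph, Pho and Crol had overlapping sites in an exon of it with peaks in all 6 libraries.

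The remaining PcG site lay within mod(mdg4) (21374872-21376099), outside the H3K27me3 domain in all 4 libraries and without Pc. Ph had 28.2-fold enrichment in rump RNAi replicate 1, but 4.29 and 2.67-fold in replicates 2 and 3, and no peak, 4.25 and 3.57-fold in control cells. This single library stood far above the rest, and the next Ph site in the same gene had 19.5-fold in it, against at most 7.56-fold elsewhere. Without this library the site still met the definition, and the count of 8 PcG sites held.

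**Figure D3:**
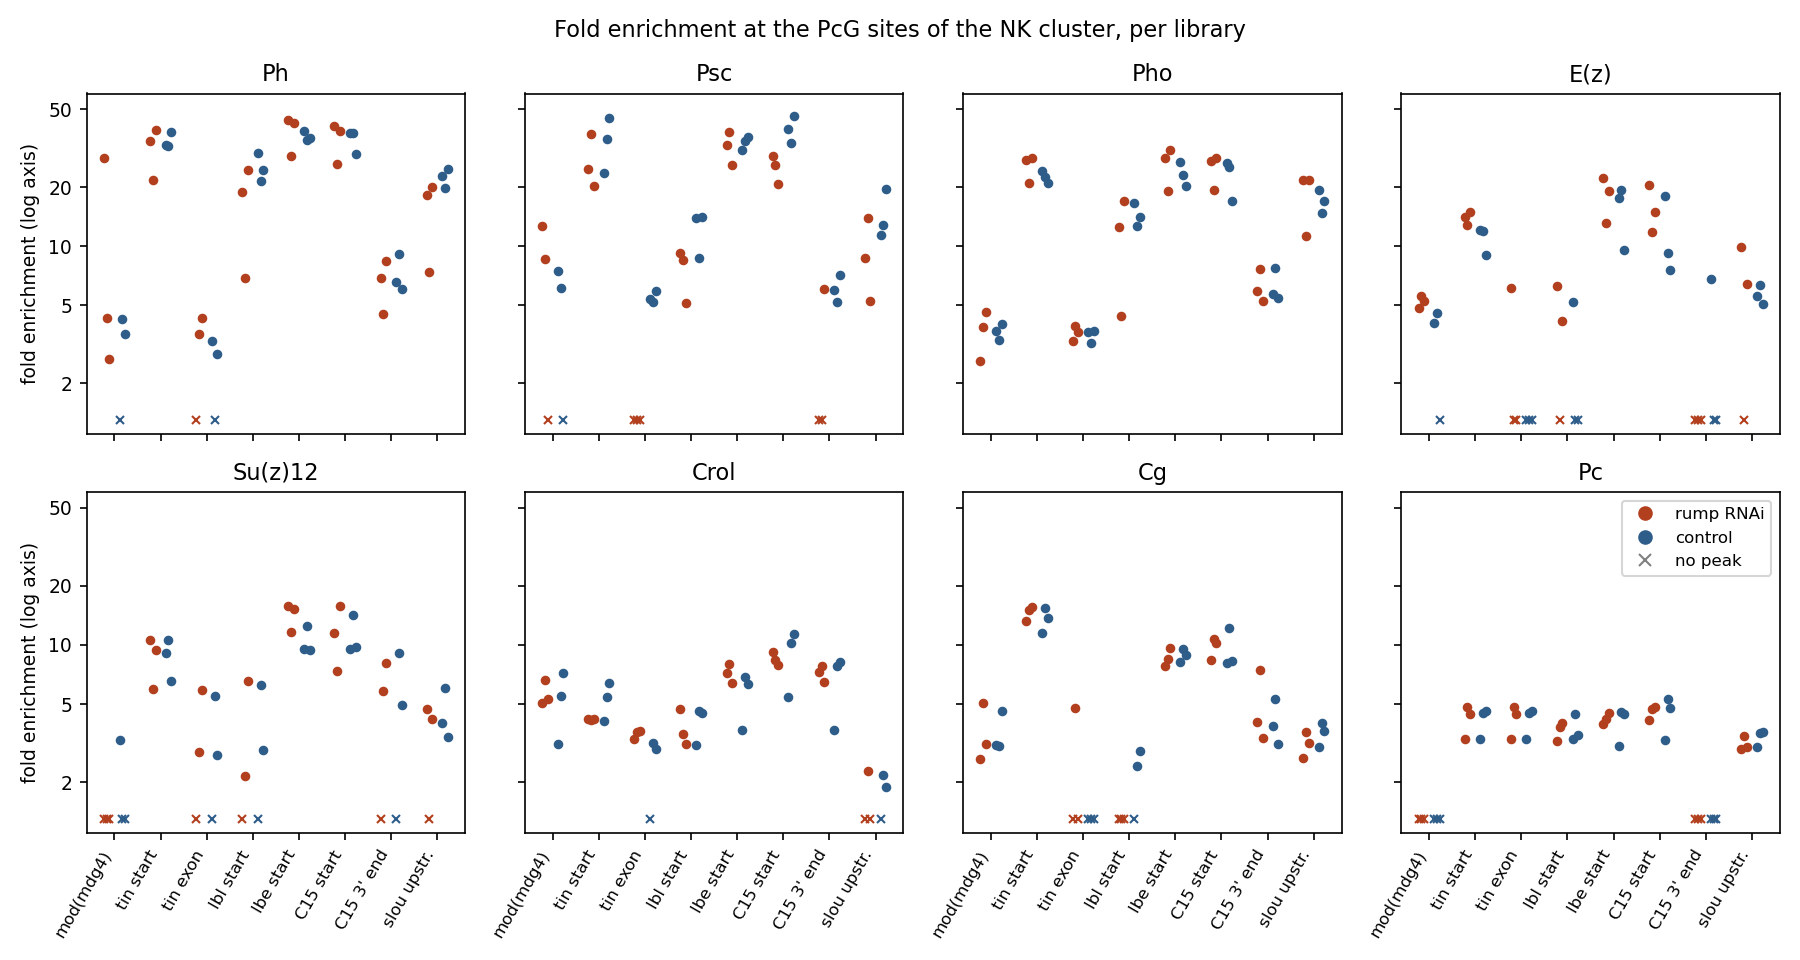
Fold enrichment over input on a log axis at the 8 PcG sites, in order along the chromosome, for 8 targets. Points are libraries (rump RNAi red and left, control blue and right), crosses mark libraries with no peak, and the 2 tin sites share 1 Pc peak. Ph, Psc and Pho are highest at the starts of tin, lbe and C15, and the rump RNAi and control points overlap at nearly all sites, with the low rump RNAi points of Ph at lbl (6.88) and slou (7.41) from replicate 2.

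The number of libraries with a peak at the 8 PcG sites was alike for most targets. Pho had all 8 in every library, and Pc had the same count of 6 in every library. Ph had 7, 8 and 8 in rump RNAi cells and 7, 7 and 8 in control cells. Psc had 6 in each rump RNAi library and 8, 8 and 7 in control libraries. Peaks of Psc were part of the definition, and the sites in the tin exon and at the 3′ end of C15 met it through 3 control libraries with 0 and 1 rump RNAi library, so these counts are a description with no test. When every Psc list was cut to its 322 strongest peaks, the counts were 6, 6 and 6 in rump RNAi cells and 6, 5 and 5 in control cells, so the difference in count was not seen at equal list length. CP190 and CTCF had no peak at any of the 8 sites in any library. Mod(mdg4) had a peak at 4 of them in rump RNAi replicate 1 and at 1 in control replicate 1, and Su(Hw) at 1 in control replicate 3.

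Whole counts of peaks per library in the windows gave a similar picture. Psc had 6, 8 and 6 peaks in rump RNAi cells and 26, 19 and 7 in control cells, a mean difference of -10.7 (exact permutation p = 0.2). At equal list length the difference was 1.33. Crol had 19, 16 and 18 peaks in rump RNAi cells and 10, 16 and 16 in control cells (difference 3.67, p = 0.3). Ph had 9, 10 and 15 peaks in rump RNAi cells and 14, 12 and 11 in control cells. Pho had 19, 18 and 17 peaks in rump RNAi cells and 18, 16 and 21 in control cells. Su(z)12 ranged from 4 to 21 peaks in rump RNAi cells and from 5 to 20 in control cells, in lists of 368 to 4267 peaks in rump RNAi cells and 315 to 2855 in control cells. No target reached the smallest possible p over the whole cluster. The 6 single gene windows were also tested for each of the 11 targets, without adjustment. There it was reached (exact permutation p = 0.1) by Psc at bap and by Crol at lbl. Psc had 1 peak at bap in each rump RNAi library and 3, 2 and 2 in control libraries. All Psc sites in the bap window lay at the tin start or in a tin exon. Crol had 4 peaks at lbl in each rump RNAi library and 1, 3 and 3 in control libraries. Neither count was repeated at equal list length.

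Sites present in all libraries of 1 condition and none of the other were rare. A single Crol site was gained in rump RNAi cells, 1 of 22 Crol sites in the cluster, where 7.16% of 13679 Crol sites in the genome were gained. It lay in an intron of lbl (21428163-21428503), 5801 bp into the gene from its start. Crol had 3.59, 3.33 and 3.18-fold enrichment there in the rump RNAi libraries and no peak in the control libraries. Its GC content was 58.4%, against a median of 58.7% for all 947 gained Crol sites on the main arms and 50% for the 4980 Crol sites of all 6 libraries. No Ph, E(z), Pc or insulator peak overlapped it. Pho and Cg each had a peak there in 1 rump RNAi library, Su(z)12 in 1 library of each condition and Psc in 1 control library.

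In turn, 2 sites were lost, 1 of 18 for Ph and 1 of 32 for Psc, where 1.52% of Ph sites and 3.79% of Psc sites in the genome were lost. The Ph site lay between the slou start and its upstream PcG site (21557946-21558258), with 5.21, 5.27 and 3.62-fold enrichment in control cells and no peak in rump RNAi cells. The Psc site covered the tin exon (21379660-21380887), with 5.35, 5.18 and 5.89-fold in control cells. Pho kept a peak in the tin exon in all 6 libraries and Crol in 5. Neither was lost when lists of equal length were compared, whereas the Crol site was still gained. No other site of the cluster was gained or lost. The shares of gained sites in the genome were 0.114% for Ph, 0.0428% for Su(z)12, 0.0226% for Pho, 0.0506% for Cg, 0.183% for CP190 and 0.138% for CTCF, and 0% for Psc, E(z), Su(Hw) and Mod(mdg4). The shares of lost sites were 0.17% for Pho, 1.4% for Crol, 0.793% for Cg, 0.149% for CP190, 0.908% for Su(Hw) and 0.111% for Mod(mdg4), and 0% for E(z), Su(z)12 and CTCF.

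To compare strength where every library had a peak, log2 fold enrichment was centred on the median of each library and tested with limma over all such sites of the genome. In the NK cluster 56 sites entered the test, 31 higher and 25 lower in rump RNAi cells, and none passed a Benjamini-Hochberg adjusted p of 0.05. By unadjusted limma p without a replicate block, 3 were under 0.05, all of them Crol. The share of all tested Crol sites under this unadjusted cutoff was not counted, so these 3 are listed without a background. With the replicate block, 1 Psc site of the cluster was also under this unadjusted cutoff. Crol was also the one target with calls in the genome, where 8.44% of 4999 sites were stronger and 10.5% weaker, while for each of the other 10 targets 0% of sites passed in either direction. The Crol calls in the genome depended on single libraries. Without rump RNAi replicate 2, 8 sites were stronger and 17 weaker, and without rump RNAi replicate 3, 8 and 22. Leaving out any other library left at least 182 in each direction, and ranks within each list gave 0. The median difference of the NK sites was 0.01 for Ph (7 sites), -0.16 for Psc (5), 0.04 for Pho (11), 0.09 for Crol (8), 0.12 for Cg (8) and -0.02 for CP190 (6), against medians of 0.0002, 0.08, 0.0094, -0.06, 0.04 and -0.0033 over all tested sites of these targets (log2 scale). For the targets with 1 to 3 sites it was 0.14 for E(z) (3), -0.03 for Su(z)12 (3), -0.10 for CTCF (2), -0.27 for Mod(mdg4) (2) and -0.16 for Su(Hw) (1), against 0.01, -0.03, -0.0028, 0.01 and -0.0037 over all tested sites. With ranks within each list in place of fold enrichment, 2 of 5 Psc sites of the cluster were lower in rump RNAi cells. In the genome 116 of 218 Psc sites were lower, in lists that were shorter in rump RNAi cells.

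Of these 3 Crol sites, 2 lay in slou and were stronger in rump RNAi cells. At the 3′ end of the gene (21548335-21549306) Crol had 4.62, 4.36 and 4.32-fold enrichment in rump RNAi cells and 2.40, 3.35 and 3.10-fold in control cells, without overlap. The centred difference was 0.49 ± 0.19 (log2, SE, n = 3 each, limma adjusted p = 0.0502). The site in an exon nearer the start (21555541-21557017) had 5.55, 6.17 and 4.72-fold in rump RNAi cells and 2.41, 3.88 and 5.42-fold in control cells, a difference of 0.45 ± 0.19 (limma adjusted p = 0.0733). The third lay at the tin start and was lower, at -0.43 ± 0.19 (limma adjusted p = 0.0842). With quantile normalization the site at the 3′ end of slou passed (limma adjusted p = 0.041), and without centring Crol had no call in the cluster or the genome.

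**Figure D4:**
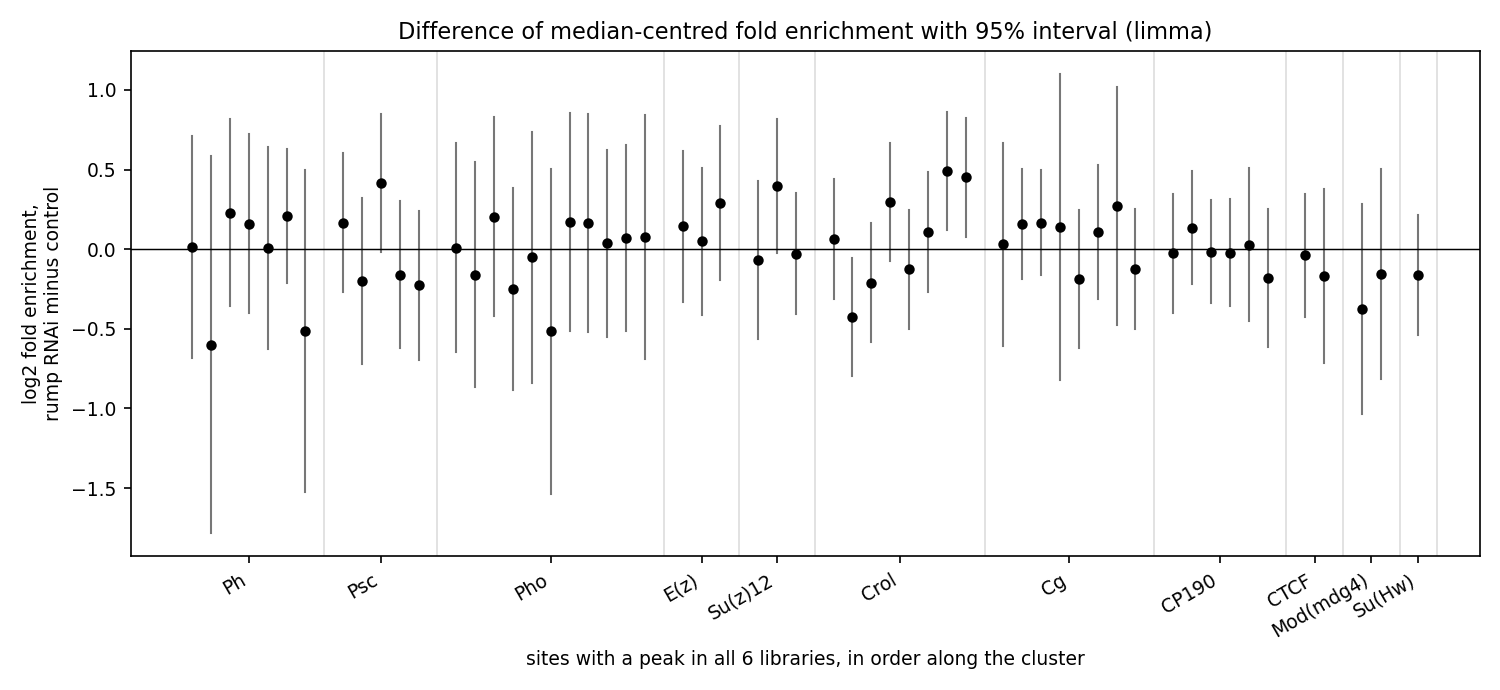
Difference in median-centred log2 fold enrichment (rump RNAi minus control) for each of the 56 NK sites with peaks in all 6 libraries, in order along the cluster within each target. Points are limma estimates and lines 95% intervals. Intervals of 3 Crol sites exclude 0 before adjustment, and the widest interval belongs to Ph at the lbl start.

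For the other targets the intervals show how large a change these libraries could have missed. They come from the fit without a replicate block, although same-numbered Ph and Psc libraries deviated together. At the lbe start the 95% interval was -0.36 to 0.82 for Ph and -0.02 to 0.85 for Psc. For CP190 upstream of bap it was -0.34 to 0.31, and for the CP190 site by sp3 it was -0.61 to 0.25. At the lbl start the Ph interval ran from -1.78 to 0.59, so that a large loss could not be told apart from none at this site.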

How the data were processed

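ChIP-seq peak lists of 13 targets in Kc167 cells were used. Per the labels and the study's methods, the authors trimmed reads (Trim Galore 0.6.7), aligned them to dm6 (Bowtie2 2.5.3), filtered them with SAMtools, for which the submitters' processing notes and the study's methods name different versions, removed duplicates (Picard) and called peaks per library against input (MACS2 2.2.7.1). The deposited values were the fold enrichment over input (a ratio), its significance as -log10 p and -log10 q, and a display score. No read counts were used, so depth is unknown and no counting interval is given. No column was left out for want of a sample. Of 34 inputs, 17 carry a rump RNAi title with a GFP treatment and were left unassigned, and no input was analysed. Peak names in the Psc, E(z) and Su(z)12 lists carry other replicate numbers than the labels, which were followed.

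Peaks were joined to sites by at least 1 bp of overlap, and the strongest peak stood for a site in each library. For counts and cover, exact permutation tests (two-sided) were run over libraries, and strength by limma 3.58.1 (R 4.3.3) on log2 fold enrichment with Benjamini-Hochberg adjustment over all sites of a target with peaks in all 6 libraries. The limma step was tested on simulated data. Python 3.11.15, pandas 2.3.3 and scipy 1.17.1 were used. The text names the 6 genes, all PcG, gained and lost sites, and insulator sites called in 2 of 3 libraries within 5 kb of a domain edge; other sites were named after their values were seen. Members and lists were chosen with earlier results of these data known. Replicates are labelled as biological, and permutation p-values measure the spread between these libraries. The limma p-values, SEs and intervals use variances that empirical Bayes draws towards those of all tested sites of a target. The Crol SEs in the cluster thus all lay between 0.187 and 0.190 and do not show the spread at each site alone.

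The labels do not say what a rump RNAi and a control library of the same number share. Titles of the control inputs do name inputs shared across targets, such as that of Ph, Pho, Cg and Crol replicate 2. Same-numbered libraries deviated together for 3 of 11 targets, with correlations of 0.31, 0.50 and 0.40 for Ph, 0.44, 0.44 and 0.37 for Psc and 0.37, 0.59 and 0.44 for Pho over replicates 1 to 3. Each of the other 8 had at least 1 replicate with a correlation under 0.1 and was not counted as paired. Their single correlations ranged from -0.27 for CTCF to 0.76 for Su(z)12. Alternatives were the replicate block, other centring, stricter q, a larger overlap (0.5 of the shorter peak), equal list length and leaving out each library. The CTCF letters, the list-length alternatives for PcG sites and the left-out Ph library were chosen after seeing the data.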

Additional observations from a re-analysis of the deposited data

How the results depend on the processing

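Of the alternatives to the main comparisons, 258 values stayed and 14 moved. A difference in peaks or cover was counted as staying when it moved by no more than the larger SD within a condition. The replicate block cannot change such a difference, so those values stayed by construction. Strength calls were mostly absent both in the main fit and in the alternatives. The tally is thus a description and no measure of robustness. At equal list length the Psc peak difference was 1.33 and no site was lost (0), and with the larger overlap 1 site was lost. H3K27me3 cover differed by -45.6 points at a -log10 q of at least 20, and 3 sites were gained at a -log10 q of at least 10. PcG sites numbered 5 when all 6 libraries were required and 5 at equal list length. Ranks gave 2 Psc calls among 5 sites of the cluster, against 116 among 218 in the genome. For Crol, the replicate block gave 2 calls (slou, adjusted p of 0.030 and 0.0473, limma) and quantile normalization 1, with replicate numbers that did not pair the Crol libraries. With the replicate block the exact permutation p for Psc peaks was 0.25 and for Pc cover 0.5, and the block changed no other call. The cause of these shifts was not tested.

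Leaving out 1 library at a time gave peak differences of -2.83 to 0.17 for Ph, -15.8 to -6.33 for Psc, -0.33 to 0.33 for E(z), -5.83 to 3.67 for Su(z)12, -1.5 to 1.0 for Pho, 1.67 to 4.67 for Crol, -0.83 to 1.17 for Cg, -0.17 to 1.33 for CTCF, -1.33 to 0.5 for Su(Hw) and -0.83 to 1.67 for Mod(mdg4). Cover differed by -2.96 to -0.018 points for H3K27me3 and -12.1 to -1.63 for Pc. Crol strength calls ranged from 0 to 1 (1 without control replicate 3), gained sites from 1 to 2 (2 without rump RNAi replicate 2 or control replicate 3) and lost sites from 2 to 7 (7 without control replicate 3, of which 6 for Psc). Without depth, a missing peak cannot be told apart from a shallow library.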

Other observations

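Between the lbe and C15 windows the first H3K27me3 domain held a further Pc peak in every library. In rump RNAi replicate 2 this peak reached into the lbe window, and in the other 5 libraries it lay outside all 6 gene windows. Control replicate 1 had a second, separate Pc peak (21456397-21458804, 2408 bp, 2.76-fold) that also reached into the lbe window and is not among the values below. Pc had fold enrichment of 3.16, 2.94 and 2.99 there in rump RNAi cells and 3.06, 3.68 and 3.17 in control cells. The conditions overlapped. The peak measured 437, 5939 and 1424 bp in rump RNAi cells and 2018, 879 and 3603 bp in control cells.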
